A study of Homo sapiens with 9 samples.

Results

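The 10 genes described here encode structural proteins of the desmosome in TE13 cells, an established line of esophageal squamous cell carcinoma (ESCC). They were chosen by symbol: the desmosomal cadherins DSG2, DSG3, DSC2 and DSC3, the armadillo proteins JUP, PKP1, PKP2 and PKP3, the plakin DSP, and the membrane protein PERP. All 10 were found, each in 1 row, among the 60605 genes of the deposited RNA-seq table, and all 10 passed the filter on low values that left 21395 genes for testing. TE13 cells were transfected with control siRNA, with PARylator siRNA.1 or with PARylator siRNA.2, and 3 libraries, which the series describes as biological replicates, were sequenced for each. PARylator is the study's name for the long noncoding RNA LINC00885. All libraries came from 1 cell line, all cells had received an siRNA, and the design had 1 control siRNA and no cells without siRNA. The time from transfection to RNA extraction is not given in the sources used here.

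Desmosomes are adhesive spots that join neighbouring epithelial cells and anchor their keratin filaments. Outside the cell, desmogleins and desmocollins of adjoining membranes bind each other. Inside, their tails bind plakoglobin and the plakophilins, which hold desmoplakin, and desmoplakin binds the keratin filaments. Squamous epithelia, such as that of the esophagus, resist abrasion through large numbers of these junctions, and the basal and upper cell layers use different desmogleins, desmocollins and plakophilins.

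The libraries held between 15337917 and 22559998 counts on genes, and the 10 desmosome genes together took between 0.24% and 0.28% of them. LINC00885 itself was near the limit of detection, with 6, 7 and 12 counts in the control libraries, 4, 5 and 2 under siRNA.1, and 2, 0 and 4 under siRNA.2, and its log2 fold changes of -1.21 and -2.33 did not pass the threshold (adjusted p = 0.376 and 0.0659 from edgeR). Counts this low cannot decide on the knockdown, which the study reported from qPCR. Mitochondrial genes took 7.46% to 7.66% of the counts in the control libraries, 4.99% to 5.06% under siRNA.1 and 5.54% to 5.56% under siRNA.2. All 6 markers of squamous epithelium (KRT5, KRT14, KRT6A, TP63, SFN and CDH1) were above 1 FPKM in every group, with summed levels of 680 to 696 FPKM under control siRNA, 467 to 480 under siRNA.1 and 468 to 487 under siRNA.2. With each siRNA, 1 of the 6 rose (KRT6A) and 4 fell, where 15.0% and 15.8% of all genes rose and 15.2% and 15.1% fell. Of the markers of other cells, 4 of 5 for fibroblasts, 4 of 5 for leukocytes, all 3 for endothelium and all 4 for cardiomyocytes stayed under 1 FPKM in every library. The fibroblast markers summed to at most 2.49 FPKM, with COL1A1 lower with both siRNAs (log2 fold changes -0.55 and -0.52). The leukocyte markers summed to 0.12 to 0.54 FPKM under control siRNA, 2.79 to 3.45 under siRNA.1 and 2.90 to 3.58 under siRNA.2. They were led by LYZ (log2 fold changes 3.08 and 3.24). PTPRC also rose (2.15 and 2.12), at 0.22 FPKM or less, and passed in 6 of 9 other settings with each siRNA. MS4A1 was at 0. The endothelial markers summed to 1.2 to 1.54 FPKM under control siRNA, 0.63 to 0.89 under siRNA.1 and 0.42 to 0.54 under siRNA.2. VWF fell (log2 fold changes -2.15 and -2.01), as did CDH5 (-0.58 and -1.63), whose value under siRNA.1 overlapped the control range and passed in 3 of 9 other settings and 5 of 9 fits with a library left out. PECAM1, too low to test, had means of 0.0267, 0.0733 and 0.0767 FPKM, and MYH6 and MYH7 of cardiomyocytes were at 0. What part these shifts have in the values of the desmosome genes was not tested.

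The 4 cadherin genes lie in a cluster of 560 kb on chromosome 18 (GRCh38). In order of position the cluster holds DSC3, DSC2, DSC1, DSG1, DSG4, DSG3 and DSG2. The 4 expressed genes are the outer ones, a pair at each end. The 3 genes between them, DSC1, DSG1 and DSG4, are family members of the upper epidermis or the hair follicle, and had at most 3, 21 and 4 counts in any library. The gap between DSC3 and DSC2 is 16 kb, that between DSG3 and DSG2 is 19.5 kb, and 345 kb separate DSC2 from DSG3. The other members are on chromosomes 1 (PKP1), 6 (DSP and PERP), 11 (PKP3), 12 (PKP2) and 17 (JUP).

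Promoter sequences are shown for the 4 genes that passed against control siRNA with both siRNAs in each of the 10 other test settings and with each library left out, DSC2 and DSC3, which fell, and DSG3 and PERP, which rose. Promoters are from RefSeq (GRCh38.p14), where the table used here matched 8 of the 10 members, and those of PKP2 and PKP3 were not analysed here. The stretches run 5′ to 3′ on the gene's strand and end just before the gene's first base as the deposited table places it. Those of DSC2 and DSC3 are thus shorter than the 250 bases before the RefSeq start site that were searched. Capitals mark matches to the motifs named after them.
DSC2, chr18:31102523-31102671, minus strand: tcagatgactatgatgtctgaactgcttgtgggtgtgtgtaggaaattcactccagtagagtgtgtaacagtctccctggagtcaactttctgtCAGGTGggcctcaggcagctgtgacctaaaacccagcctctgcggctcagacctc
DSC3, chr18:31042816-31042992, minus strand: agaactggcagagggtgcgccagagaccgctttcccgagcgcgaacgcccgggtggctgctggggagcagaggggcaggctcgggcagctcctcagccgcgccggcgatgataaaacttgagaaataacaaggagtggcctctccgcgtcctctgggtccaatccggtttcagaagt
DSG3, chr18:31447491-31447740, plus strand: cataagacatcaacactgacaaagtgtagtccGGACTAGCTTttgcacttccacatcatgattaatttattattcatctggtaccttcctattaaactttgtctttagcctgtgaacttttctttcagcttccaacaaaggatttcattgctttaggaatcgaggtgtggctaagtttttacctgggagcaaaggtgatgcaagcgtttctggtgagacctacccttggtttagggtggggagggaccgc
PERP, chr6:138107420-138107669, minus strand: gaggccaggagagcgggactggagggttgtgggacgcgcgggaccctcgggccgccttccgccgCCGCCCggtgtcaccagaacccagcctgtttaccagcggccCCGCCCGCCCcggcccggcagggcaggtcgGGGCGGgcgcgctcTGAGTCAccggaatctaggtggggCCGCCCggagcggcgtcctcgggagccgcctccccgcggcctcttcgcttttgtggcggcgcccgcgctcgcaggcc

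5 motifs were searched on both strands of the 250 bases: the AP-1 motif TGANTCA, the GC box GGGCGG, the E-box CACCTG, the TATA box TATAAA and the p53-family half-site. PERP held the AP-1 motif, from 101 to 95 bases before its start site, and 5 GC boxes, of which 2 share bases. DSC2 held 1 E-box and 1 GC box, and DSC3 and DSG3 each held 1 p53-family half-site. The E-box of DSC2 and the half-site of DSG3 are in capitals above, while the GC box of DSC2 and the half-site of DSC3 lie in the bases left off. Among the 8 promoters, 6 held a GC box, 3 an E-box, 2 a half-site, 1 an AP-1 motif and none a TATA box, against 42.3%, 17.5%, 5.53%, 6.60% and 11.1% of 27305 promoters. None of the matches overlapped a match to another motif. GC content in this window was lowest in DSG3 among the 8 members, with 42.8% and 4 CpG against 77.2% and 34 CpG in PERP, 60.4% and 18 in DSC3, and 59.6% and 12 in DSC2, where the median of all promoters was 58.0% and 11.

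Levels are given in FPKM, counts scaled to a gene's exonic length and to the library total, so that any order between genes rests on the deposited lengths. DSC2, with 12501 bases, had 1394 to 1537 counts under control siRNA, against 833 to 1021 for DSG3, with 5579 bases. Under control siRNA, JUP was the highest at 108 FPKM and DSC2 the lowest at 7.31. Between them came PERP (66.4), DSP (60.5), DSG2 (46.2), PKP3 (31.9), DSC3 (15.7), PKP1 (15.6), PKP2 (13.0) and DSG3 (10.3). The ranges of PERP and DSP overlapped, as did those of DSC3 and PKP1, and the other neighbours in this order did not. DSC2 was above 73.2% of all genes tested and JUP above 98.6%. Under siRNA.1 no neighbours overlapped, and DSG3 stood sixth, above PKP1, PKP2 and DSC3. Under siRNA.2 the order was the same as under siRNA.1, but DSG3, PKP1, PKP2 and DSC3 ran into one another, each overlapping the next. The level of PKP2 rests on the deposited exonic length of 6970 bases, where GENCODE release 44 gives 10288.

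**Figure D1:**
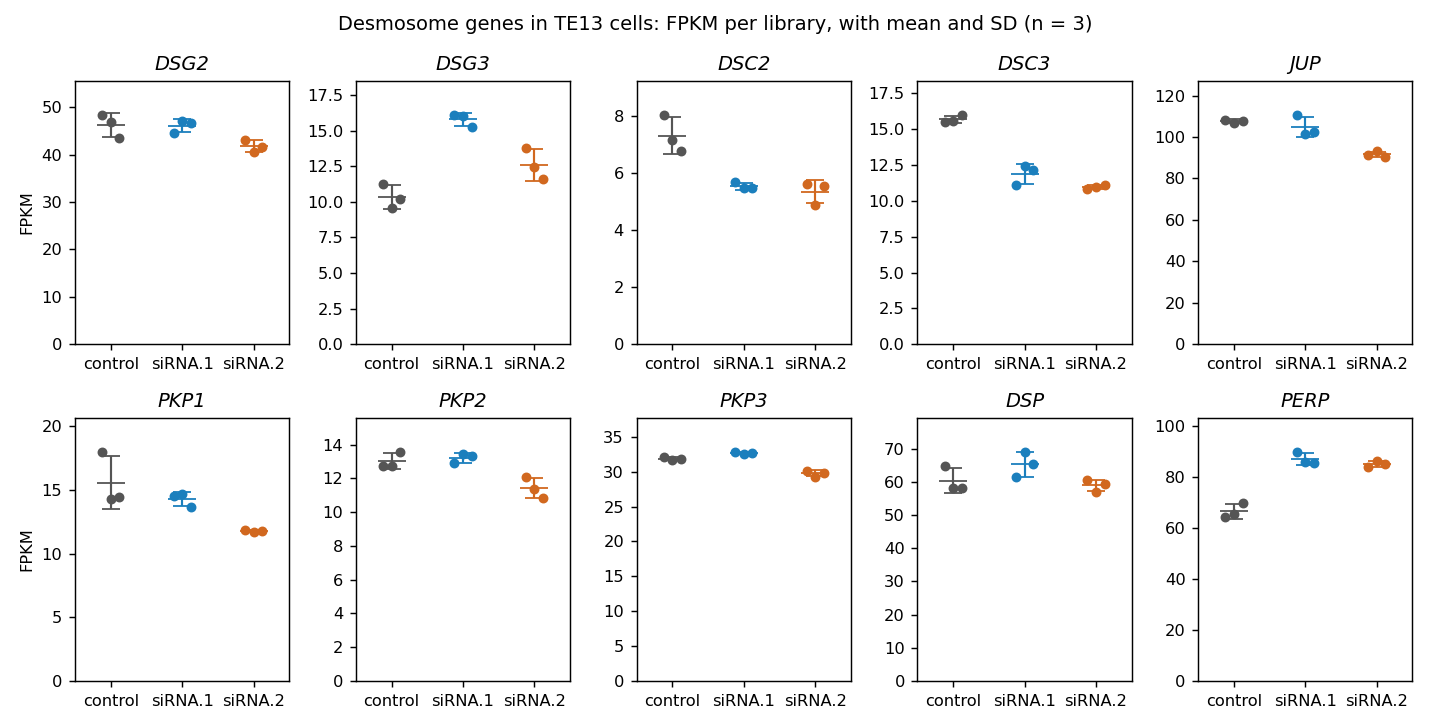
FPKM of each desmosome gene (vertical axes, from 0) in the 3 libraries of control siRNA, PARylator siRNA.1 and PARylator siRNA.2 (points), with the mean (bar) and SD (whiskers, n = 3). DSC2 and DSC3 were lower and DSG3 and PERP higher than control siRNA in all libraries of both siRNAs, while DSG2, JUP, PKP1 and PKP2 lay below all control libraries under siRNA.2 and overlapped them under siRNA.1.

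The first question was whether the desmosome genes differ when PARylator is targeted by either siRNA. Under siRNA.1, 2 of the 10 genes rose (DSG3 and PERP) and 3 fell (DSC2, DSC3 and PKP1) at an adjusted p under 0.05 from edgeR, where 15.0% of all 21395 genes tested rose and 15.2% fell. Under siRNA.2, DSG3 and PERP rose and 6 genes fell (DSC2, DSC3, DSG2, JUP, PKP1 and PKP2), against 15.8% and 15.1% of all genes. Each member stood above at least 73.2% of tested genes in control level, so shares of all genes, here and below, include many lower genes. Raising the filter to 1 FPKM left 12532 genes, a larger part of which passed. Under siRNA.1, 2866 rose and 2953 fell, and 4 members passed. Under siRNA.2, 2927 rose and 2986 fell, and 9 members passed. Whether members passed more often than genes of like level was not tested. The median log2 fold change of the members was -0.02 under siRNA.1 and -0.18 under siRNA.2, beside -0.0006 and 0.004 over all genes. FPKM ranges did not overlap those of control siRNA for 5 members under siRNA.1 and 9 under siRNA.2, against 37.7% and 39.6% of all genes. Both comparisons use the same control libraries and are given side by side. In bulk libraries, fewer cells with a transcript and less of it per cell cannot be told apart.

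DSG3 rose with both siRNAs, while DSG2 fell under siRNA.2 and did not pass under siRNA.1. DSG2, the desmoglein found most widely across epithelia (ENSG00000046604, chromosome 18, 31498177 to 31549008), was at 48.32, 46.90 and 43.49 FPKM under control siRNA, 44.61, 47.07 and 46.76 under siRNA.1, and 43.12, 40.66 and 41.74 under siRNA.2. The siRNA.1 libraries fell within the control range, and all siRNA.2 libraries were below it. DSG2 had a log2 fold change of -0.03 under siRNA.1 (SE 0.04, adjusted p = 0.643 from edgeR) and -0.16 under siRNA.2 (SE 0.04, adjusted p = 0.000643 from edgeR). An antisense gene, DSG2-AS1, overlaps 186 of its exonic bases and had 7 to 19 counts, against 6869 to 8938 for DSG2.

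DSG3, a desmoglein of stratified epithelium and the main autoantigen of pemphigus vulgaris (ENSG00000134757, chromosome 18, 31447741 to 31478702), had the largest increase of the 10 genes under siRNA.1. It was at 11.22, 9.58 and 10.22 FPKM under control siRNA, 16.07, 16.05 and 15.26 under siRNA.1, and 13.76, 12.42 and 11.57 under siRNA.2. The 3 groups did not overlap, and siRNA.2 lay between the others. It rose by 49.9% under siRNA.1 (log2 fold change 0.58, SE 0.06, adjusted p = 6.47e-19 from edgeR) and by 20.6% under siRNA.2 (log2 fold change 0.27, SE 0.06, adjusted p = 0.00012 from edgeR).

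Both desmocollins fell with both siRNAs. DSC2, the desmocollin of most epithelia and of heart muscle (ENSG00000134755, chromosome 18, 31058840 to 31102522), was at 8.02, 7.15 and 6.77 FPKM under control siRNA, 5.67, 5.47 and 5.46 under siRNA.1, and 5.61, 4.88 and 5.55 under siRNA.2. Every siRNA library was below every control library. DSC2 fell by 25.6% under siRNA.1 (log2 fold change -0.43, SE 0.06, adjusted p = 5.22e-11 from edgeR) and fell by 27.4% under siRNA.2 (log2 fold change -0.46, SE 0.06, adjusted p = 5.3e-13 from edgeR).

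DSC3, the desmocollin of the basal layers of stratified epithelium (ENSG00000134762, chromosome 18, 30989365 to 31042815), was at 15.50, 15.58 and 15.96 FPKM under control siRNA, 11.12, 12.42 and 12.12 under siRNA.1, and 10.84, 10.96 and 11.09 under siRNA.2. No siRNA library reached the control range. It fell by 25.7% under siRNA.1 (log2 fold change -0.43, SE 0.06, adjusted p = 5.87e-13 from edgeR) and by 30.6% under siRNA.2 (log2 fold change -0.53, SE 0.06, adjusted p = 1.27e-19 from edgeR). Summed, the desmocollins went from 22.73 to 23.52 FPKM under control siRNA to 16.79 to 17.89 under siRNA.1 and 15.84 to 16.64 under siRNA.2. The summed desmogleins were at 53.71 to 59.54, 60.68 to 63.12 and 53.08 to 56.88 FPKM, so that only siRNA.1 stood above the control range. All 4 cadherins together came to 79.6 ± 3.32, 79.4 ± 1.78 and 70.7 ± 2.31 FPKM (SD, n = 3).

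**Figure D2:**
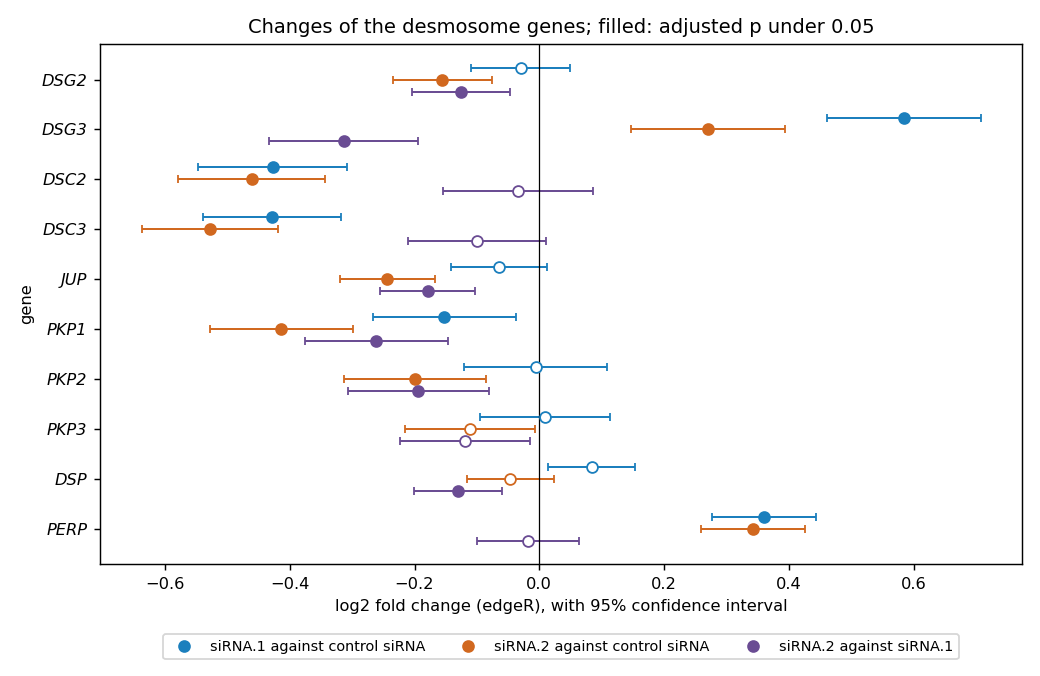
Log2 fold change (horizontal axis) of each desmosome gene in the 3 comparisons, with its 95% confidence interval (bars). Filled points have an adjusted p under 0.05 from edgeR, and the largest value, that of DSG3 under siRNA.1, is 0.58.

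Of the 4 armadillo genes, 3 fell under siRNA.2, where 15.1% of all genes fell. JUP encodes plakoglobin, which links the cadherin tails to desmoplakin and also serves adherens junctions (ENSG00000173801, chromosome 17, 41754604 to 41786931). It was at 108.42, 106.69 and 107.74 FPKM under control siRNA, 110.48, 101.37 and 102.67 under siRNA.1, and 91.37, 93.12 and 90.30 under siRNA.2. The siRNA.1 libraries lay on both sides of the control range, and the siRNA.2 libraries all below it. The log2 fold change was -0.06 under siRNA.1 (SE 0.04, adjusted p = 0.224 from edgeR) and -0.24 under siRNA.2 (SE 0.04, adjusted p = 5.62e-09 from edgeR). Without siRNA.1 replicate 1, the highest of its group, the first value was -0.11 and passed the threshold (adjusted p = 0.0354 from edgeR).

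PKP1, a plakophilin most abundant in the upper layers of stratified epithelium (ENSG00000081277, chromosome 1, 201283452 to 201332993), was at 17.99, 14.33 and 14.43 FPKM under control siRNA, 14.51, 14.66 and 13.67 under siRNA.1, and 11.85, 11.72 and 11.75 under siRNA.2. Control replicate 1 stood above all other libraries, the siRNA.1 range overlapped the other control libraries, and siRNA.2 was below both groups. PKP1 fell by 24.9% under siRNA.2 (log2 fold change -0.41, SE 0.06, adjusted p = 2.44e-11 from edgeR). Under siRNA.1 the log2 fold change was -0.15 (SE 0.06, adjusted p = 0.0327 from edgeR). That call rested on control replicate 1, without which it was -0.04 (adjusted p = 0.751 from edgeR), and it was lost in 8 of 10 other settings and without siRNA.1 replicate 3 (adjusted p = 0.182 from edgeR).

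PKP2, the plakophilin of simple epithelia and the heart (ENSG00000057294, chromosome 12, 32790755 to 32896777), was at 12.73, 12.76 and 13.56 FPKM under control siRNA, 12.90, 13.44 and 13.33 under siRNA.1, and 12.07, 11.40 and 10.85 under siRNA.2. The siRNA.1 libraries were within the control range and the siRNA.2 libraries below it. PKP2 had a log2 fold change of -0.01 under siRNA.1 (SE 0.06, adjusted p = 0.968 from edgeR) and -0.20 under siRNA.2 (SE 0.06, adjusted p = 0.00283 from edgeR). A lncRNA on the same strand shares 424 exonic bases with PKP2 and had at most 16 counts, and a PKP2 pseudogene had at most 3.

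PKP3, a plakophilin of most epithelia (ENSG00000184363, chromosome 11, 392614 to 404908), was the most abundant of its family. It was at 32.16, 31.70 and 31.80 FPKM under control siRNA, 32.83, 32.60 and 32.66 under siRNA.1, and 30.11, 29.29 and 29.89 under siRNA.2. Although the 3 groups did not overlap, neither difference from control siRNA passed the threshold. The log2 fold changes were 0.01 under siRNA.1 (95% confidence interval -0.10 to 0.11, adjusted p = 0.936 from edgeR) and -0.11 under siRNA.2 (-0.21 to -0.01, adjusted p = 0.106 from edgeR). The value under siRNA.2 passed in 5 of 10 other settings, DESeq2 (adjusted p = 0.0319) and limma among them.

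DSP encodes desmoplakin, which ties the junction to keratin filaments (ENSG00000096696, chromosome 6, 7541617 to 7586714). It had 64.79, 58.35 and 58.23 FPKM under control siRNA, 61.50, 69.05 and 65.41 under siRNA.1, and 60.60, 57.10 and 59.29 under siRNA.2. Both siRNA groups overlapped the control libraries. The log2 fold change was 0.08 under siRNA.1 (SE 0.04, adjusted p = 0.0606 from edgeR) and -0.05 under siRNA.2 (SE 0.04, adjusted p = 0.369 from edgeR). Under siRNA.1 it passed, at 0.14 (adjusted p = 0.0025 from edgeR), without control replicate 1, at 0.12 (adjusted p = 0.00395) without siRNA.1 replicate 1, and at 0.08 (adjusted p = 0.0363) without siRNA.2 replicate 1. It also passed when libraries were scaled by their totals alone, at 0.11 (adjusted p = 0.00492 from edgeR). Its antisense gene DSP-AS1 shares 81 exonic bases and had 33 to 71 counts, against 12134 to 17843 for DSP.

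PERP, a membrane protein of the desmosome and a known target of p53 and p63 (ENSG00000112378, chromosome 6, 138088505 to 138107419), was at 64.11, 65.33 and 69.78 FPKM under control siRNA, 89.62, 85.80 and 85.26 under siRNA.1, and 83.61, 86.03 and 85.00 under siRNA.2. All siRNA libraries were above all control libraries, and the siRNA groups overlapped. It rose by 28.4% under siRNA.1 (log2 fold change 0.36, SE 0.04, adjusted p = 5.44e-16 from edgeR) and by 26.8% under siRNA.2 (log2 fold change 0.34, SE 0.04, adjusted p = 1.19e-14 from edgeR). Its range lay wholly above that of DSP in both siRNA groups. In the control libraries the ranges overlapped, with the mean of PERP already the higher.

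The siRNAs were also compared directly. Under siRNA.2, 6 of the 10 genes were lower than under siRNA.1 (DSG2, DSG3, JUP, PKP1, PKP2 and DSP) and none was higher, where 6.06% of all genes were lower and 6.10% higher. With the filter raised to 1 FPKM, 1336 of 12532 genes were lower and 1197 higher, and 7 members passed. FPKM ranges did not overlap for 8 members, against 24.4% of all genes. The median of the 10 log2 differences was -0.13, beside 0.0043 over all genes. DSG3 differed most, at -0.31 (SE 0.06, adjusted p = 1.05e-05 from edgeR), followed by PKP1 at -0.26 (SE 0.06, adjusted p = 0.000199 from edgeR). PKP2 was at -0.19 (adjusted p = 0.00999 from edgeR) and JUP at -0.18 (adjusted p = 0.000123 from edgeR). The smallest differences that passed were those of DSP at -0.13 (adjusted p = 0.00396 from edgeR) and DSG2 at -0.13 (adjusted p = 0.0193 from edgeR).

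4 genes did not pass between the siRNAs. PERP was at -0.02 (95% confidence interval -0.10 to 0.06), DSC2 at -0.03 (-0.15 to 0.09), DSC3 at -0.10 (-0.21 to 0.01) and PKP3 at -0.12 (-0.22 to -0.02). The call for DSG2 was lost without siRNA.1 replicate 2 or 3 (adjusted p = 0.0502 and 0.118 from edgeR) and without siRNA.2 replicate 2 or 3 (adjusted p = 0.123 and 0.0592 from edgeR). The call for DSP was lost without siRNA.1 replicate 2 or siRNA.2 replicate 2 (adjusted p = 0.0815 and 0.058 from edgeR), and that for PKP2 without siRNA.1 replicate 3 or siRNA.2 replicate 3 (adjusted p = 0.0523 and 0.123 from edgeR). The calls for DSG2, PKP1 and DSP were also lost with limma on log2 FPKM at each pseudocount tried.

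Composition within each family was compared as shares of the family's summed FPKM, with an exact two-sided permutation test over libraries whose smallest possible p is 0.1 for 3 libraries against 3. DSG2 made up 81.7% ± 1.14 (SD, n = 3) of the desmoglein level under control siRNA, 74.5% ± 0.942 under siRNA.1 and 76.9% ± 1.27 under siRNA.2. The single libraries were at 81.2%, 83.0% and 81.0%, at 73.5%, 74.6% and 75.4%, and at 75.8%, 76.6% and 78.3%. None of the groups overlapped, and each pair reached the smallest exact permutation p of 0.1. The share taken by DSC2 in the desmocollin level was 31.8% ± 2.18 under control siRNA, 31.8% ± 1.72 under siRNA.1 and 32.8% ± 1.73 under siRNA.2 (SD, n = 3), with overlapping libraries and exact permutation p of 1.0 and 0.6 against control siRNA.

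Among the plakophilins, PKP1 took 25.7% ± 2.52 under control siRNA, 23.7% ± 0.697 under siRNA.1 and 22.2% ± 0.255 under siRNA.2 (SD, n = 3), where siRNA.2 did not overlap control siRNA (exact permutation p = 0.1) and siRNA.1 did (exact permutation p = 0.2). PKP3 took 52.8% ± 1.44, 54.3% ± 0.542 and 56.2% ± 0.661, with the same pattern of overlap and the same exact permutation p. PKP2 took 21.5% ± 1.23, 22.0% ± 0.489 and 21.6% ± 0.846 (exact permutation p = 0.7 and 0.9). No composition can pass a threshold of 0.05 in this design.

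**Figure D3:**
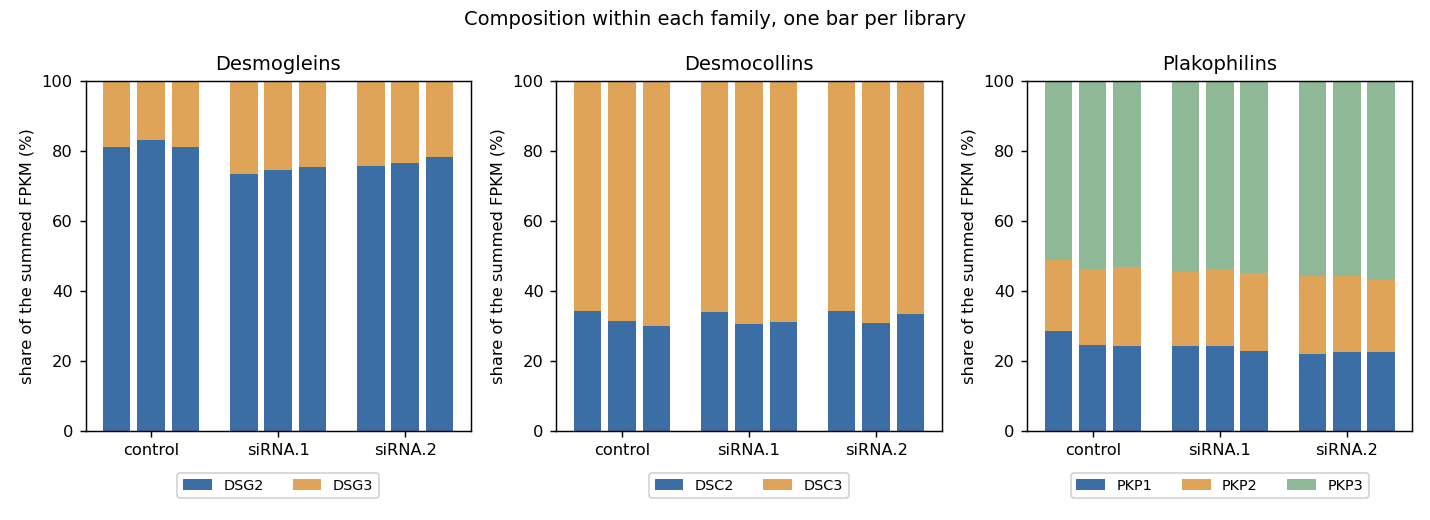
Share of the summed FPKM (vertical axis, percent) of each desmoglein, desmocollin and plakophilin, with 1 bar per library in the groups control siRNA, PARylator siRNA.1 and PARylator siRNA.2. The DSG2 share was at least 81.0% in the control libraries and at most 78.3% in the siRNA libraries, while DSC2 lay between 29.8% and 34.1% in all 9 libraries.

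Over all 10 genes, summed levels were 368.4 to 383.3 FPKM under control siRNA, 392.6 to 399.3 under siRNA.1 and 357.0 to 362.9 under siRNA.2. The groups did not overlap, and siRNA.1 lay above and siRNA.2 below control siRNA. Such a sum follows its most abundant genes. PERP alone went from 66.4 FPKM to 86.9 under siRNA.1 and 84.9 under siRNA.2, and JUP from 108 to 105 and 91.6. Of the 10 genes, 4 had a positive log2 fold change under siRNA.1 and 2 under siRNA.2. FPKM is scaled to library totals that include mitochondrial genes, whose share was lower with both siRNAs.

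9 other genes of the desmosome family or bound to it were looked at as a list, of which DSC1, DSG1 and DSG4 were too low to test. Of the 6 tested, none rose with either siRNA, where 15.0% of all genes rose under siRNA.1 and 15.8% under siRNA.2. Under siRNA.1, 1 fell (median log2 fold change -0.12), where 15.2% of all genes fell, and 2 fell under siRNA.2 (median -0.22), where 15.1% did. PPL, the plakin periplakin, was at 22.4 ± 0.528 FPKM under control siRNA, 20.2 ± 1.03 under siRNA.1 and 10.6 ± 0.484 under siRNA.2 (SD, n = 3). It fell under siRNA.1 (log2 fold change -0.18, SE 0.05, adjusted p = 0.00202 from edgeR) and more under siRNA.2 (log2 fold change -1.09, SE 0.05, adjusted p = 1.63e-94 from edgeR), and siRNA.2 stood at -0.91 against siRNA.1 (adjusted p = 1.38e-64 from edgeR). EVPL, the plakin envoplakin, which pairs with periplakin, had levels of 14.0 ± 0.885, 14.3 ± 0.407 and 10.8 ± 0.603 FPKM (SD, n = 3), and fell under siRNA.2 (log2 fold change -0.39, adjusted p = 1.55e-10 from edgeR) while its value under siRNA.1 was 0.00. The remaining 4 genes tested did not pass in either comparison. PKP4, an armadillo relative of the plakophilins, was at 0.00 and -0.01, PNN at -0.08 and -0.06, KAZN at -0.15 and 0.01, and CDSN, the corneodesmosin gene, with at most 19 counts in a library, at -0.72 and -1.23.

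The other cell junctions and the keratins were described by the same counts, beside 15.0% of all genes higher and 15.2% lower under siRNA.1, and 15.8% higher and 15.1% lower under siRNA.2. Of 12 adherens junction genes, 2 rose and 8 fell under siRNA.1 (median log2 fold change -0.18), and 1 rose and 9 fell under siRNA.2 (median -0.25). CDH1, which encodes E-cadherin, went from 133 ± 7.25 FPKM to 123 ± 3.47 and 93.3 ± 4.06 (SD, n = 3), with log2 fold changes of -0.15 (adjusted p = 0.000414 from edgeR) and -0.53 (adjusted p = 3.3e-44 from edgeR). CTNNB1, which encodes beta-catenin, the relative of plakoglobin, fell under siRNA.1 (-0.26, adjusted p = 8.84e-08 from edgeR) and siRNA.2 (-0.15, adjusted p = 0.00472 from edgeR). Of the genes that passed with both siRNAs, NECTIN1, a cell adhesion receptor, had the largest changes, -0.64 and -0.91, followed by CTNND1, which encodes p120-catenin, at -0.41 and -0.47.

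Of 12 tight junction genes, 3 rose and 6 fell under siRNA.1 (median -0.23), and 1 rose and 9 fell under siRNA.2 (median -0.35), beside the same shares of all genes. TJP3, a scaffold protein, had 95 to 156 counts under control siRNA, 21 to 34 under siRNA.1 and 14 to 35 under siRNA.2, and log2 fold changes of -2.21 and -2.67 (adjusted p = 1.36e-16 and 3.25e-23 from edgeR). F11R, which encodes the adhesion molecule JAM-A, was at 34.5 ± 0.854, 22.4 ± 1.05 and 20.4 ± 0.403 FPKM (SD, n = 3), with log2 fold changes of -0.65 and -0.77. The desmosome genes stayed within a narrower range than either list, from -0.53 to 0.58 over both comparisons, a difference that was not tested.

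Keratins, the filaments that desmoplakin holds, moved in both directions. With each siRNA, 3 of 10 rose and 4 fell, where 15.0% and 15.8% of all genes rose and 15.2% and 15.1% fell, and the medians were -0.08 and -0.06. KRT5, the basal type II keratin, went from 142 ± 8.29 FPKM under control siRNA to 40.0 ± 2.81 under siRNA.1 and 55.8 ± 2.85 under siRNA.2 (SD, n = 3), log2 fold changes of -1.86 and -1.36. Its usual partner KRT14 did not pass, with 9.07 ± 0.546, 10.7 ± 1.59 and 8.67 ± 0.376 FPKM (SD, n = 3) and log2 fold changes of 0.21 and -0.08 (adjusted p = 0.125 and 0.652 from edgeR). KRT6B rose from 0.68 ± 0.105 FPKM to 1.40 ± 0.15 and 2.88 ± 0.583 (SD, n = 3), with log2 fold changes of 1.01 and 2.07, and is uncertain because it shares near-identical sequence with KRT6A. SFN, the squamous marker with the next largest change after KRT5, was at -0.79 and -0.75. KRT6A, another squamous marker, rose from 78.7 ± 1.12 FPKM to 102 ± 2.04 and 118 ± 4.29 (SD, n = 3), with log2 fold changes of 0.34 and 0.58.

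**Figure D4:**
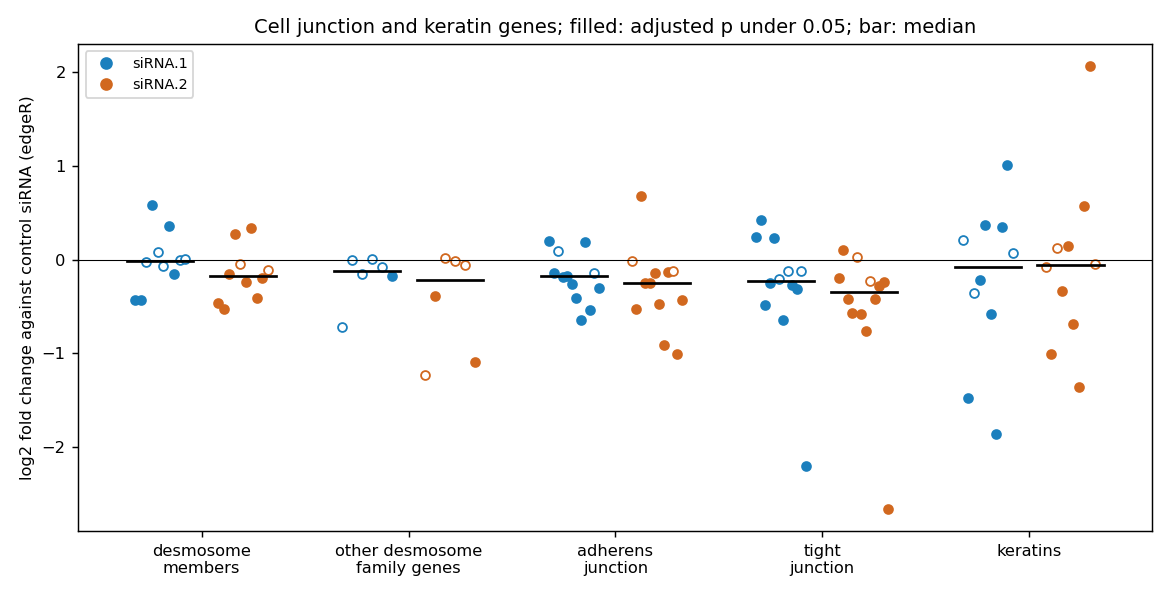
Log2 fold change against control siRNA (vertical axis) of each gene tested in 5 lists, under siRNA.1 and siRNA.2 side by side, filled where the adjusted p was under 0.05 from edgeR, and the list's median as a bar. The desmosome members lie between -0.53 and 0.58, and the lowest point is TJP3 at -2.67.

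Averaged over both siRNAs, DSC3 changed most of the 10 genes, by -0.48 on the log2 scale. Among 11858 other named genes whose mean reached 1 FPKM, the 5 whose log2 CPM followed it most closely over the 9 libraries were MAB21L3 (Pearson r = 0.998), SEL1L (0.994), ATP6AP2 (0.993), PAK6 (0.988) and EPB41L1 (0.988). These correlations only describe 9 libraries, which fall into 3 groups and share the step between them. MAB21L3 fell from 2.27 ± 0.154 FPKM to 0.533 ± 0.1 and 0.387 ± 0.0252 (SD, n = 3), a larger step than that of DSC3. It reached the required mean of 1 FPKM only through the control libraries, where DSC3 was also highest. SEL1L went from 21.1 ± 0.569 to 16.4 ± 0.673 and 15.6 ± 0.257 FPKM (SD, n = 3), with log2 fold changes of -0.39 and -0.45 that were closest in size to those of DSC3 among the 5.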

How the data were processed

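RNA-seq was measured in 9 libraries of TE13 cells, 3 per siRNA, grouped by the labels. The authors captured poly(A)+ RNA, aligned reads to GRCh38 (STAR) and summed them over genes (featureCounts). Versions, annotation and strandedness are not given in the sources used here, so antisense reads cannot be told apart. The authors deposited raw counts per gene and FPKM computed from them, whose values were recomputed from counts, totals and exonic length to within 0.005.

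Counts were tested with edgeR 4.0.16 (TMM, quasi-likelihood) in 1 fit of the 3 groups without covariates, over the 21395 genes whose mean reached 0.1 FPKM, and p was adjusted over all of them by Benjamini-Hochberg with a threshold of 0.05. Percent changes come from the fitted log2 fold changes. The standard error (SE) was taken from the log2 fold change and its F statistic, as the former over the root of the latter. DESeq2 (the study's tool, run here in version 1.42.0), limma 3.58.1 on log2(FPKM + pseudocount) and other filters, scalings and sample sets were alternatives. Totals of 15337917 to 22559998 counts limit precision for low genes.

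Named are all members, the other desmosome genes, from each other list the 2 genes with the largest mean change among those passing with both siRNAs, CDH1, CTNNB1, KRT5, KRT14 and LINC00885, and the 5 genes most correlated with the member of largest mean change. Members and lists were chosen with earlier results of these data known. Symbols, positions and exonic lengths are those of the deposited table, overlaps come from GENCODE release 44, and the table holds none of the authors' comparisons. Protein and siRNA sequences are not shown.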

Additional observations from a re-analysis of the deposited data

Results flagged for a closer look

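For 6 desmosome genes the effects of the siRNAs differed by the test of the difference itself, siRNA.2 against siRNA.1 in the same edgeR fit. Of all genes tested, 6.06% were lower and 6.10% higher in that comparison. The log2 differences, siRNA.2 minus siRNA.1, were -0.13 for DSG2 (adjusted p = 0.0193 from edgeR), -0.31 for DSG3 (adjusted p = 1.05e-05), -0.18 for JUP (adjusted p = 0.000123), -0.26 for PKP1 (adjusted p = 0.000199), -0.19 for PKP2 (adjusted p = 0.00999) and -0.13 for DSP (adjusted p = 0.00396). All 3 siRNA.2 libraries were below all 3 siRNA.1 libraries for each of these genes. Only DSG3 and JUP passed in all 10 other settings and all 9 fits with a library left out. The calls for DSG2, PKP1, PKP2 and DSP were each lost in some of them. DSG3 rose with both siRNAs and by less under siRNA.2, while PKP2, DSG2 and JUP passed against control siRNA under siRNA.2 alone. PPL, outside the 10 genes, differed in the same direction by -0.91. Which property of the siRNAs goes with these differences was not tested.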

How the results depend on the processing

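Results were recomputed with DESeq2 size factors, library totals alone, no filter on low values, a mean of at least 1 FPKM, DESeq2, limma at 3 pseudocounts, the 2 groups alone, a replicate block and each library left out. The number of members called stayed between 4 and 7 under siRNA.1, 8 and 9 under siRNA.2, and 4 and 7 between the siRNAs, against 5, 8 and 6. A further limit of 1 on the absolute log2 fold change left 0 members in each comparison with edgeR, DESeq2 and limma, where 6, 9 and 7 members had an unadjusted p under 0.05 in edgeR. The shares of all genes past that limit or under that unadjusted p are not given here. Same-numbered libraries did not deviate together (correlations -0.116 to 0.0617 over 9 pairs), and the replicate block left 4, 8 and 6 members called, without PKP1 for siRNA.1.

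Over the single genes, 267 of 300 values under other settings and 249 of 270 with a library left out kept direction and side of the threshold. PKP1 under siRNA.1 was lost under 8 settings, and PKP3 under siRNA.2 and between the siRNAs was gained under 5. Values that turned direction were near 0 and none had passed. For PKP2 and siRNA.1 (-0.01) it was 0.0215 by library totals, 0.0010 without the filter, and 0.0229, 0.0215 and 0.0231 by limma at pseudocounts of 0.1, 1 and 0.01. With 1 library left out, the log2 values ran from -0.0214 to 0.0268 for PKP2 and siRNA.1, from -0.0714 to 0.0031 for DSG2 and siRNA.1, from -0.0732 to 0.0063 for DSP and siRNA.2, and, between the siRNAs, from -0.0685 to 0.0211 for DSC2 and from -0.0335 to 0.0075 for PERP. As shares of counts in place of FPKM, the difference in the DSG2 share was -5.13 percentage points under siRNA.1 and -3.39 under siRNA.2, against -7.23 and -4.82, where FPKM divides by exonic lengths of 9492 bases for DSG2 and 5579 for DSG3. DSC1, DSG1 and DSG4 were below the mean of 0.1 FPKM required for testing, and LINC00885 had at most 12 counts, which limits the precision of its values.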
